A study of Mus musculus with 18 samples.

Results

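The 8 genes examined here encode the core of MHC class II antigen presentation and were taken from the table of microglial gene expression by their symbols. They are the class II chain genes H2-Aa, H2-Ab1 and H2-Eb1, the invariant chain gene Cd74, the peptide loading genes H2-DMa and H2-DMb1, the transactivator gene Ciita and the co-stimulatory gene Cd86. All 8 were among the 22428 genes tested. The libraries came from microglia of the mouse medial prefrontal cortex (mPFC), sorted at postnatal day 51 as CD11b+/CD45+/P2ry12+ cells. The C57BL6/J mice were wild type (WT) or carried the 16p11.2 duplication (16p11dup), and each genotype received either vehicle (Veh) or 8 mg/kg Δ9-tetrahydrocannabinol (THC), injected under the skin once a day from postnatal day 30 to 51. There were 6 WT-Veh, 4 WT-THC, 4 16p11dup-Veh and 4 16p11dup-THC libraries, and no source used here states that each library was a separate mouse. The p-values therefore measure the spread between libraries, which may be partly technical.

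Class II molecules are pairs of an alpha and a beta chain that carry peptides from the endosomal route to CD4+ T cells. The invariant chain (CD74) holds the empty pair during its transport, cathepsins cut it down to a small fragment, and the H2-DM heterodimer exchanges that fragment for antigen. H2-O inhibits H2-DM, CIITA switches the class II promoters on, and CD86 is the ligand of CD28 and CTLA-4 on T cells. Resting microglia are known for very low class II expression, which rises after interferon-gamma, while border macrophages, dendritic cells and B cells express the genes at rest.

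The libraries held 7045444 to 15459286 recovered counts. At the library sizes as scaled by the authors, 3 counts, the limit that a count of 0 allows, correspond to 0.155 to 0.424 CPM. Counts are PCR reads without molecular identifiers, so this limit covers counting error only. CPM here is the recovered count per 1000000 counts of the library size as scaled by the authors. All 11 microglial markers examined had a count in every library, and their summed level was 16200 to 33430 CPM.

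Cd86 and H2-DMa were the 2 members counted in all 18 libraries. Per kilobase of exon, the mean level over 18 libraries was 75.2 ± 56.9 (SD) CPM for Cd86, 41.2 ± 23.5 for H2-DMa, 27.4 ± 79.7 for Cd74 and 12.7 ± 13.7 for H2-DMb1. The chain genes followed, with 3.70 ± 7.48 CPM per kilobase for H2-Ab1, 3.20 ± 9.96 for H2-Aa and 2.67 ± 8.11 for H2-Eb1, and Ciita was last at 0.00236 ± 0.00712. Each gap between neighbours in this order down to H2-Eb1 was smaller than the larger of the 2 SDs. The median level was 55.9 CPM per kilobase for Cd86 and 35.2 for H2-DMa but 2.14 for Cd74 and 0.0357 for H2-Aa. Single libraries held most of the summed CPM of Cd74, H2-Aa and H2-Eb1, and the highest library of H2-Ab1 held 44.2%.

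**Figure D1:**
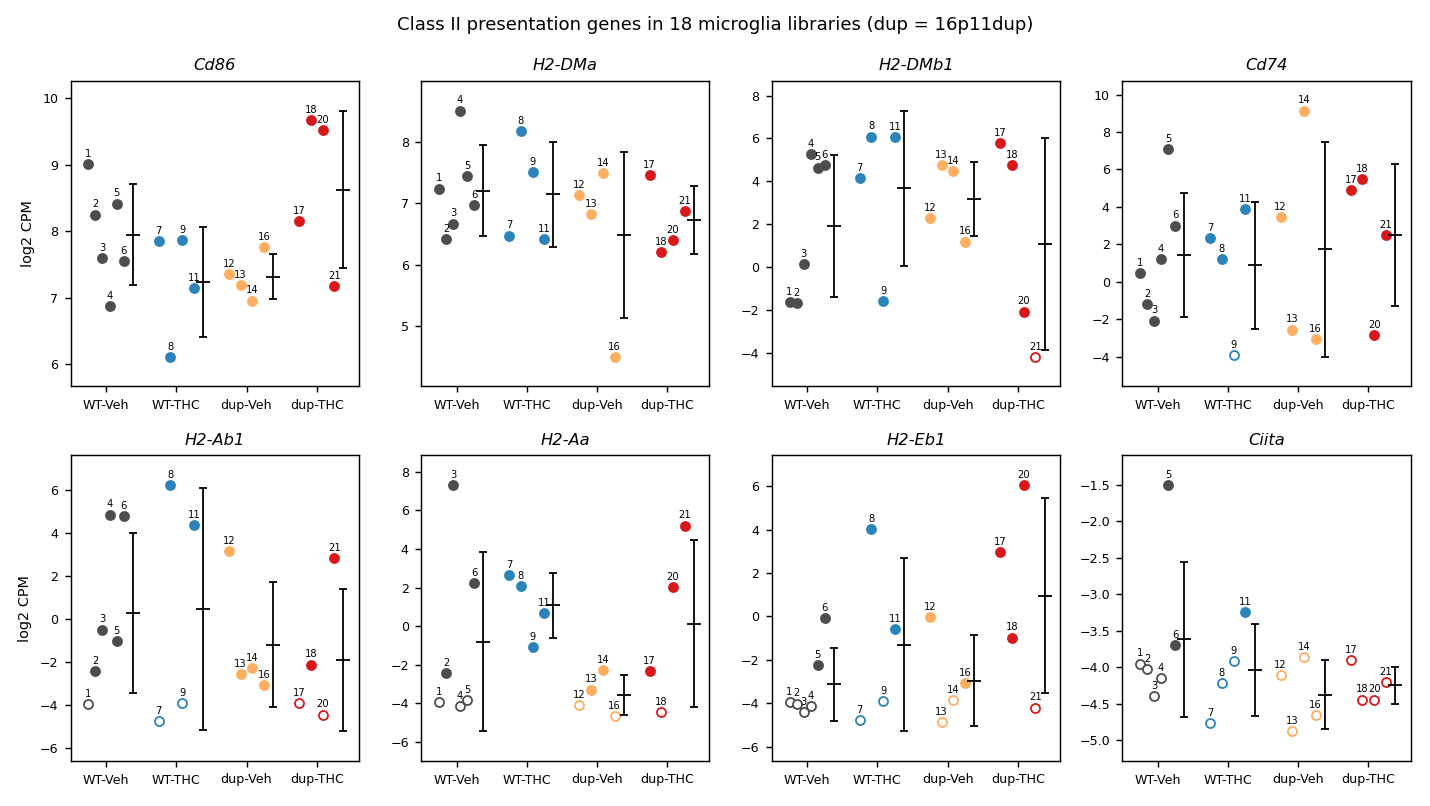
Log2 CPM of the 8 members (vertical axes) in each library, by group (horizontal axes, dup = 16p11dup). Points are libraries with their replicate numbers, open points are counts of 0, and the bar beside each group is the mean ± SD of log2 CPM. Cd86 and H2-DMa are counted in all 18 libraries, while Ciita has a count in only 3.

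The chain genes lie together in the class II region of mouse chromosome 17. Class II promoters are known for an X box and a Y box through which CIITA acts, and the promoter letters are shown for the members with a match and for 2 other loci. Windows of 250 bases before to 50 after the start were given by RefSeq (GRCm38.p6) for 4 of the 8 members, namely H2-Aa, H2-Eb1, H2-DMa and H2-DMb1, and for the 4 other class II loci examined. The windows were searched on both strands for an X box core, written CTAGNAAC, and a Y box core, written TGATTGG. Neither overlaps the other. The printed stretches run from 60 bases before the Y box to 10 bases after it, 5′ to 3′ on the strand of the gene, with matched letters in capitals.
H2-Aa: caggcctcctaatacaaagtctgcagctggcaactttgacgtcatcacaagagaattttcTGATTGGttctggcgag
H2-Eb1: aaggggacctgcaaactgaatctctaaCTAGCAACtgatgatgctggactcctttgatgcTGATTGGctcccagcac
H2-DMb1: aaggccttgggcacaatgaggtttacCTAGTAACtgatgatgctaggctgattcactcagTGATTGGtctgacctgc
H2-DMb2: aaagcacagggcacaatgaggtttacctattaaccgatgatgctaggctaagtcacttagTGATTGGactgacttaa
H2-Ob: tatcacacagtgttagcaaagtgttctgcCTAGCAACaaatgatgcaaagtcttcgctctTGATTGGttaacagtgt

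These 5 stretches lie on chromosome 17, at chr17:34287857-34287933 for H2-Aa (minus strand), chr17:34305746-34305822 for H2-Eb1, chr17:34153068-34153144 for H2-DMb1, chr17:34145097-34145173 for H2-DMb2 and chr17:34238786-34238862 for H2-Ob (all plus strand). The Y box letters began 50 bases before the start in H2-Aa, 61 in H2-Eb1, 63 in H2-DMb1, 92 in H2-DMb2 and 59 in H2-Ob. The X box letters were matched in H2-Eb1, H2-DMb1 and H2-Ob, at 94, 97 and 90 bases before the start. Of the loci not printed, H2-Oa had Y box letters 45 bases before the start, and H2-Eb2, which had no count in any library, had Y box letters at 102 bases and X box letters at 12. Neither was matched in the 2 windows of H2-DMa. Of 32851 RefSeq promoter windows of this length, 3.62% held the X box letters, 7.82% the Y box letters and 0.259% both. A match is a description of letters and was not linked to any expression value. H2-Ab1, Cd74, Ciita and Cd86 are named without a promoter.

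H2-Aa, which encodes the I-A alpha chain (chr17:34282744-34287823 in GENCODE annotation of GRCm38), was counted in 12 of 18 libraries. In WT-Veh its lowest, median and highest levels were 0, 0.0616 and 159.7 CPM. It had 6.27, 4.19, 0.399 and 1.55 CPM in WT-THC replicates 7, 8, 9 and 11. In 16p11dup-Veh replicates 12, 13, 14 and 16 the values were 0, 0.0680, 0.138 and 0 CPM, and in 16p11dup-THC replicates 17, 18, 20 and 21 they were 0.134, 0, 4.04 and 37.2. No 16p11dup-Veh library exceeded 1 count, and 1 library, WT-Veh replicate 3, held 73.1% of the CPM summed over 18 libraries. The groups overlapped in all 5 comparisons of 2 groups.

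H2-Ab1 (chr17:34257689-34269419), the gene for the I-A beta chain that pairs with the H2-Aa product, was counted in 13 libraries. Its lowest, median and highest levels in WT-Veh were 0, 0.544 and 29.0 CPM. WT-THC replicates 7, 8, 9 and 11 had 0, 75.6, 0 and 20.8 CPM. The levels were 8.92, 0.136, 0.138 and 0.0794 CPM in 16p11dup-Veh replicates 12, 13, 14 and 16, and 0, 0.184, 0 and 7.07 in 16p11dup-THC replicates 17, 18, 20 and 21. Every group thus contained libraries at or below 0.2 CPM and at least 1 above 7 CPM.

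H2-Eb1 (chr17:34305867-34316674) encodes the I-E beta chain. It was counted in 9 libraries and overlaps an antisense gene, Gm20513. The counting did not use strand, so reads from stretches that both genes share cannot be told apart by strand. The H2-Eb1 count was a whole number in every library. Its highest WT-Veh level was 0.929 CPM and the median was 0. WT-THC replicates 7, 8, 9 and 11 had 0, 16.2, 0 and 0.633 CPM, and 16p11dup-Veh replicates 12, 13, 14 and 16 had 0.926, 0, 0 and 0.0794. In 16p11dup-THC replicates 17, 18, 20 and 21 the levels were 7.62, 0.460, 66.3 and 0 CPM. Replicate 20 of that group held 71.0% of the summed CPM.

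Cd74 (chromosome 18) was counted in 17 libraries. The lowest, median and highest WT-Veh levels were 0.190, 1.78 and 138 CPM, and WT-THC replicates 7, 8, 9 and 11 had 4.94, 2.26, 0 and 14.6. The 16p11dup-Veh replicates 12, 13, 14 and 16 had 10.8, 0.136, 566 and 0.0794 CPM, and 16p11dup-THC replicates 17, 18, 20 and 21 had 29.4, 44.2, 0.0919 and 5.65. A single library, 16p11dup-Veh replicate 14, held 68.4% of the summed CPM, with 4109 counts of Cd74 against 1 count each of H2-Aa and H2-Ab1. Replicate 16 of the same group had 1 count of Cd74.

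Cd74, the I-A chain genes H2-Aa and H2-Ab1 and the I-E chain gene H2-Eb1 do not encode 1 single complex, and they were seldom found together. At a level of 1 CPM or more, Cd74 was present in 12 libraries, H2-Aa in 7, H2-Ab1 in 6 and H2-Eb1 in 3 of 18. Both I-A chain genes reached 1 CPM in 4 libraries, so 3 libraries had H2-Aa without H2-Ab1 and 2 had the reverse. All 4 genes reached it in 1 library, WT-THC replicate 8, and none did in 4 libraries, which were 1 of WT-Veh, 1 of WT-THC and 2 of 16p11dup-Veh. The summed level of the 4 genes ran from 0.616 to 161 CPM in WT-Veh, from 0.399 to 98.2 in WT-THC, from 0.238 to 566 in 16p11dup-Veh and from 37.2 to 70.4 in 16p11dup-THC. The 16p11dup-THC range lay inside those of the 3 other groups.

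**Figure D2:**
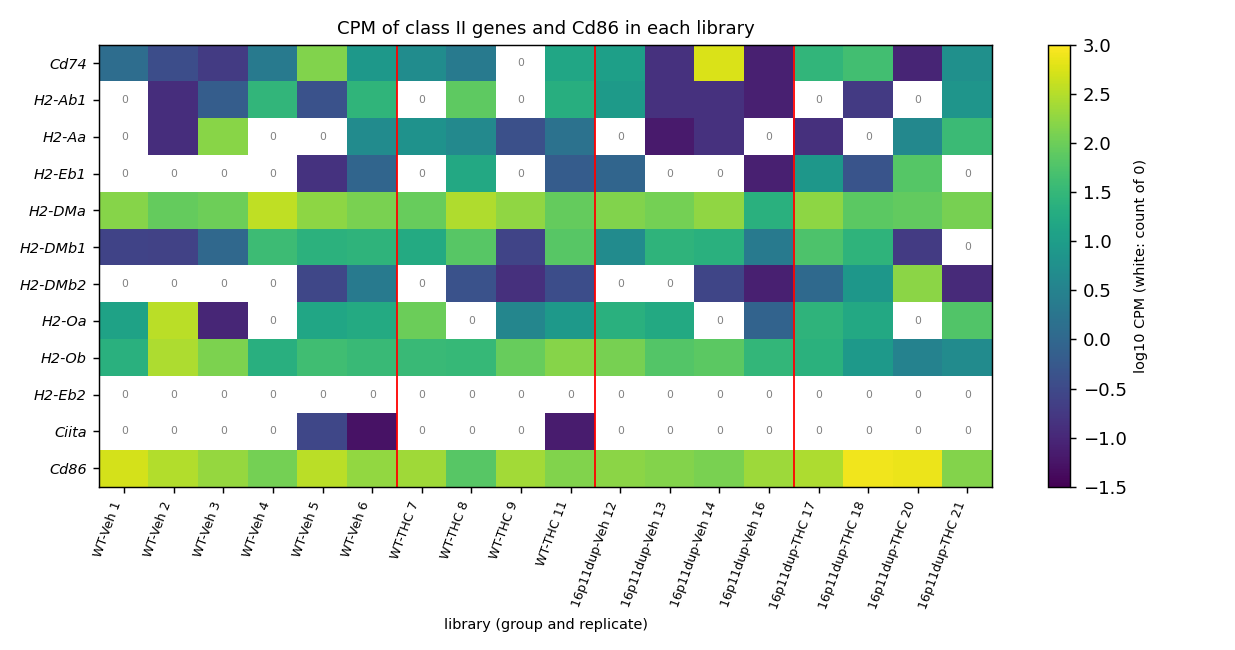
CPM of the 8 members and 4 other class II loci (rows) in each library (columns, group and replicate, red lines between groups), on a log10 colour scale with white for a count of 0. H2-DMa, H2-Ob and Cd86 are filled in every column, whereas the chain genes are scattered, with 159.7 CPM of H2-Aa in WT-Veh replicate 3 and 566 CPM of Cd74 in 16p11dup-Veh replicate 14.

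Markers of class II positive cell types other than microglia were examined in the same libraries. The summed level of 10 border macrophage markers was 296 to 996 CPM, of 10 dendritic cell markers 0 to 85.1 and of 5 B cell markers 0 to 50.1. A count in at least 1 library was found for 9 of 10 border macrophage, 8 of 10 dendritic cell and 3 of 5 B cell markers, and those at 0 in every library were Clec12a, Cd209a, Ccr7, Ms4a1 and Pax5. A count in every library was found for 1 border macrophage marker and for 0 dendritic cell or B cell markers. By group, the border macrophage sum ran from 296 to 996 CPM in WT-Veh, 318 to 671 in WT-THC, 421 to 605 in 16p11dup-Veh and 393 to 924 in 16p11dup-THC. In 16p11dup-Veh replicate 14, the library with the most Cd74, the border macrophage, dendritic cell and B cell sums were 486, 59.9 and 1.65 CPM. In WT-Veh replicate 3, the library with the most H2-Aa, they were 396, 5.59 and 38.9 CPM. In WT-THC replicate 8, which had the most H2-Ab1, they were 614, 0.215 and 0.645 CPM, and its monocyte and neutrophil sum was 98.3 CPM against 0.797 to 7.67 in the rest of its group. In 16p11dup-THC replicate 20, which had the most H2-Eb1 and H2-DMb2, they were 924, 25.2 and 24.4 CPM, and only WT-Veh replicate 2 had a higher border macrophage sum. Their part in the class II levels was not tested. Markers with an unadjusted limma p under 0.05 in at least 1 comparison included Csf1r, Cx3cr1, Tmem119 and Aif1 of microglia, Spp1 of disease-associated microglia, Lyve1 of border macrophages, Xcr1 of dendritic cells and S100a8 of neutrophils. Per comparison, 3.64 to 5.8% of the genes with any count had such a p. The microglial signs differed, as with log2 fold changes of 0.50 for Csf1r in 16p11dup-THC compared with WT-Veh and −1.17 for Aif1 compared with WT-THC. None of these markers had a limma FDR under 0.10. In sorted bulk samples, fewer cells of a type and less RNA per cell cannot be told apart.

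H2-DMa (chr17:34119541-34139101) encodes the alpha chain of the peptide exchange factor, and its locus overlaps Brd2 and 3 other annotated genes. Brd2 is a protein-coding gene on the other strand. The counting did not use strand, so reads from stretches that the genes share cannot be told apart by strand. The H2-DMa count was a whole number in every library. The lowest, median and highest WT-Veh levels of H2-DMa were 85.2, 138 and 365 CPM. WT-THC replicates 7, 8, 9 and 11 had 88.8, 290, 181 and 85.7 CPM, 16p11dup-Veh replicates 12, 13, 14 and 16 had 140, 114, 180 and 22.5, and 16p11dup-THC replicates 17, 18, 20 and 21 had 175, 73.7, 84.3 and 117. All 4 groups overlapped, and 16p11dup-Veh replicate 16 was the lowest library. The group means were 166.9 ± 102.1 CPM in WT-Veh (n = 6), 161.6 ± 96.7 in WT-THC (n = 4), 114 ± 67.0 in 16p11dup-Veh (n = 4) and 113 ± 45.7 in 16p11dup-THC (n = 4). The log2 fold changes ran from −0.76 (16p11dup-Veh compared with WT-Veh, SE 0.55) to 0.25 for the interaction (SE 0.85).

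H2-DMb1 (chr17:34153072-34160230), the gene of the beta chain that pairs with the H2-DMa product, was less even. Its lowest, median and highest WT-Veh levels were 0.246, 12.9 and 38.8 CPM, and WT-THC replicates 7, 8, 9 and 11 had 17.8, 67.7, 0.266 and 66.5. The 16p11dup-Veh libraries had 4.75, 26.7, 22.3 and 2.22 CPM, and 16p11dup-THC replicates 17, 18, 20 and 21 had 55.5, 26.8, 0.190 and 0. Every group except 16p11dup-Veh had at least 1 library below 0.3 CPM, and all groups overlapped. Its near copy H2-DMb2 lies beside it, and in 5 libraries the counts of both genes were not whole numbers because the counting split shared reads between them. The split of reads between the 2 genes is therefore uncertain.

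Ciita (chr16:10480059-10528418) is the gene of the class II transactivator. It had 2 counts in WT-Veh replicate 5, 1 in WT-Veh replicate 6 and 1 in WT-THC replicate 11. The count was 0 in the other 15 libraries. No library exceeded 3 counts, so no fold change is given. In the 15 libraries with a count of 0, that count allows a level up to 0.204 to 0.413 CPM, depending on the library. Of the 8 members, 7 had at least 10 counts in at least 4 libraries, and Ciita did not.

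Cd86 (chr16:36603869-36666081) encodes the B7-2 co-stimulatory ligand and was the most abundant member per kilobase. Its lowest, median and highest WT-Veh levels were 117, 248 and 515 CPM. WT-THC replicates 7, 8, 9 and 11 had 229.8, 68.9, 234 and 141 CPM, and 16p11dup-Veh replicates 12, 13, 14 and 16 had 164, 146, 124 and 216. In 16p11dup-THC replicates 17, 18, 20 and 21 the levels were 283, 815, 732 and 144 CPM. Replicates 18 and 20 were above every other library of the study, and replicate 21 was within the range of 16p11dup-Veh. The group means were 276 ± 143 CPM in WT-Veh (n = 6), 168 ± 79.0 in WT-THC (n = 4), 163 ± 39.4 in 16p11dup-Veh (n = 4) and 493 ± 329.8 in 16p11dup-THC (n = 4).

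Each comparison asked whether the treatment, the duplication or both together changed these genes. No member reached the FDR threshold of 0.10 in limma in any of the 5 comparisons of 2 groups or in the interaction. The share of all genes called at that threshold was 0.00892% in WT-THC compared with WT-Veh, 0% in 16p11dup-Veh compared with WT-Veh, 0.00446% in 16p11dup-THC compared with WT-Veh, 0.00446% in 16p11dup-THC compared with WT-THC, 0% in 16p11dup-THC compared with 16p11dup-Veh and 0% for the interaction. DESeq2 called 1 member in each of 4 comparisons, H2-Aa in 16p11dup-Veh compared with WT-Veh (FDR = 0.0148), in 16p11dup-THC compared with 16p11dup-Veh (FDR = 0.00246) and in the interaction (FDR = 0.0109), and H2-Eb1 in 16p11dup-THC compared with WT-Veh (FDR = 0.0649). The quasi-likelihood test of edgeR called no member at that threshold. The shares above are those of limma. No share of all genes called by DESeq2 is given, so how rare its calls were is not shown. Over the 18 libraries both genes had over 70% of their CPM in 1 library, WT-Veh replicate 3 for H2-Aa and 16p11dup-THC replicate 20 for H2-Eb1. WT-Veh is not one of the groups in 16p11dup-THC compared with 16p11dup-Veh. There, 16p11dup-THC replicate 21 held 342 of the 387 H2-Aa counts of its group, and no 16p11dup-Veh library exceeded 1 count.

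At an unadjusted p under 0.05, 0 members were counted in WT-THC compared with WT-Veh, against 2.54% of all genes and 4.07% of the 13964 genes with any count. There were 0 in 16p11dup-Veh compared with WT-Veh, against 2.27% and 3.64%. There was 1 member, H2-Eb1, in 16p11dup-THC compared with WT-Veh, against 3.44% and 5.53%. Cd86 was the 1 member in 16p11dup-THC compared with WT-THC (3.61% and 5.8%), in 16p11dup-THC against 16p11dup-Veh (3.21% and 5.16%) and in the interaction (2.85% and 4.58%). Among the 7 members with a fold change, 4 were above 0 in WT-THC compared with WT-Veh, where 46.7% of the genes with any count were. The number was 2 in 16p11dup-Veh compared with WT-Veh (51.1%), 4 in 16p11dup-THC compared with WT-Veh (46.1%), 3 in 16p11dup-THC compared with WT-THC (53%), 5 in 16p11dup-THC against 16p11dup-Veh (47.5%) and 5 for the interaction (49.4%). In the order of the 5 comparisons of 2 groups their median log2 fold changes were 0.14, −0.50, 0.92, −0.50 and 1.42, while those of the genes with any count were −0.11, 0.03, −0.10, 0.05 and −0.06. For the interaction the medians were 1.71 and −0.02. The comparisons with 16p11dup-THC share its libraries, and those with WT-Veh share the WT-Veh libraries.

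Cd86 in 16p11dup-THC had a log2 fold change of 1.42 (SE 0.57, limma FDR = 0.83) compared with 16p11dup-Veh, and 3 of the 4 libraries were above every 16p11dup-Veh library. Compared with WT-THC it was 1.51 (SE 0.57, limma FDR = 0.965), again with 3 of 4 libraries above every WT-THC library. Compared with WT-Veh it was 0.92 (SE 0.52, limma FDR = 0.803). In the vehicle-treated 16p11dup group and in WT-THC the values were −0.50 (SE 0.49) and −0.59 (SE 0.49) compared with WT-Veh. The interaction, the difference between the THC effects in the 2 genotypes, was 2.01 (SE 0.76, limma FDR = 0.973). Exact 2-sided permutation tests of Cd86 alone gave p = 0.114 for 16p11dup-THC against either group of 4, where the smallest possible p is 0.0286.

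The Cd86 estimates depended on single libraries and on the covariates. Without 16p11dup-THC replicate 18, the log2 fold change was 0.93 compared with 16p11dup-Veh and 1.01 compared with WT-THC. Without replicate 20 they were 1.12 and 1.21, and with the 5 surrogate variables of the authors as covariates they were 0.55 and 1.09. In these fits the unadjusted limma p of Cd86 was no longer under 0.05. The same held without 16p11dup-Veh replicate 13 compared with 16p11dup-Veh (1.34), without WT-THC replicate 8 compared with WT-THC (1.14), and for the interaction without WT-THC replicate 8 (1.62), without 16p11dup-THC replicate 18 (1.49) or with the surrogate variables (1.15). Compared with WT-Veh, the unadjusted p fell under 0.05 without WT-Veh replicate 1 (1.16) or 16p11dup-THC replicate 21 (1.37), while the value was 0.45 without replicate 18 and 0.61 without replicate 20.

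The within-group spread of Cd86, a pooled SD of 0.82 on the log2 scale, was close to the median of 0.81 for 548 genes of like abundance.

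H2-Eb1 in 16p11dup-THC had a log2 fold change of 4.21 compared with WT-Veh (SE 1.92, limma FDR = 0.803), and an exact 2-sided permutation test gave p = 0.0810. Of the 4 libraries, 2 were above the highest WT-Veh level of 0.929 CPM and 1 had no count. Without 16p11dup-THC replicate 20 the value was 2.79, and 10 of 18 fits that each left out 1 library gave an unadjusted p of 0.05 or more. The median border macrophage sum was 773 CPM in 16p11dup-THC and 410 in WT-Veh. In 16p11dup-THC replicates 17, 18, 20 and 21 the sums were 632, 393, 924 and 914 CPM. H2-Eb1 there was at 7.62, 0.460, 66.3 and 0 CPM. In WT-Veh, replicate 2 had the highest sum, 996 CPM, with 0 counts of H2-Eb1. Replicate 6, with the highest WT-Veh level of H2-Eb1, had a sum of 414 CPM. Of the 10 border macrophage markers, 1 had a count in every library, so the sum can rest on few genes. Of 9 such markers with a count, 6 had a log2 fold change above 0 in this comparison (median 0.65), and 9 of 9 did in 16p11dup-THC compared with WT-THC (median 1.86). Below 0 in the comparison with WT-Veh were Pf4 (−1.25), Ms4a7 (−0.48) and Siglec1 (−0.22). Lyve1, a marker of these cells, was at 0 in WT-Veh and reached 7.09 CPM in 16p11dup-THC. Their part in the H2-Eb1 and other 16p11dup-THC values was not tested.

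For Cd74, H2-Aa, H2-Ab1 and H2-DMb1 the SE of each log2 fold change was at least 1.96, and the sign of several estimates turned with the test used. Their pooled within-group SDs on the log2 scale were 4.07, 3.55, 3.99 and 3.56, against a median of 2.87 over the 8444 genes counted in some libraries only. Those genes were not matched for abundance. Their median mean log2 CPM was −1.47, against 1.61, −0.80, −0.48 and 2.39 for the 4 members.

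**Figure D3:**
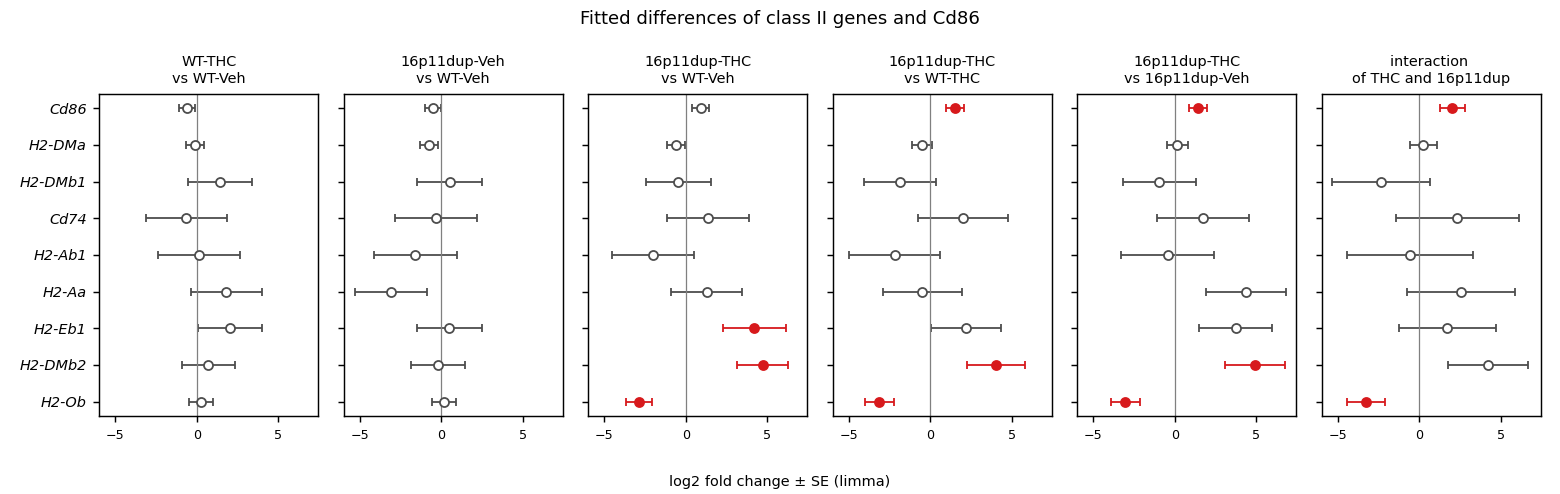
Log2 fold change ± SE from limma (horizontal axes) for 7 members, H2-DMb2 and H2-Ob (rows) in 5 comparisons of 2 groups and the interaction (panels). Red points have an unadjusted p under 0.05, none has an FDR under 0.10, and H2-Ob lies at −2.87 to −3.29 in the 4 panels that involve 16p11dup-THC.

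The 4 other class II loci were read beside the members. H2-Ob (chr17:34238903-34254414) encodes the beta chain of H2-O, the inhibitor of H2-DM, and was counted in all 18 libraries. Its lowest, median and highest WT-Veh levels were 21.8, 39.1 and 276 CPM, WT-THC replicates 7, 8, 9 and 11 had 35.1, 33.1, 89.0 and 152, and 16p11dup-Veh replicates 12, 13, 14 and 16 had 118, 63.3, 74.8 and 30.0. The 16p11dup-THC replicates 17, 18, 20 and 21 had 23.4, 8.74, 3.12 and 4.67 CPM. All 4 were below every WT-THC and every 16p11dup-Veh library, and 3 of 4 were below every WT-Veh library. The share of all genes whose groups separate in this way is not given.

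The log2 fold change of H2-Ob in 16p11dup-THC was −2.87 (SE 0.79, limma FDR = 0.803) compared with WT-Veh, −3.13 (SE 0.87, limma FDR = 0.965) compared with WT-THC and −3.04 (SE 0.87, limma FDR = 0.83) compared with 16p11dup-Veh. The interaction was −3.29 (SE 1.17, limma FDR = 0.973). Of all genes, 1.77%, 2.09%, 1.99% and 1.77% had an unadjusted p under 0.05 with a negative sign in these 4 comparisons. Exact 2-sided permutation tests gave p = 0.0190 against WT-Veh and p = 0.0286, the smallest possible with 4 against 4, against each of the other groups. DESeq2 called H2-Ob at FDR = 0.00519, 0.0286 and 0.0617 in the 3 comparisons of 2 groups but not in the interaction (FDR = 0.362). The share of all genes that DESeq2 called is not given. With each library left out in turn the estimate stayed between −2.44 and −3.33 compared with WT-Veh, between −2.62 and −3.58 compared with WT-THC and between −2.65 and −3.49 compared with 16p11dup-Veh.

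H2-Oa, the alpha chain gene that pairs with the H2-Ob product, was scattered like the chain genes, and an antisense gene (BC051537) overlaps it. It was counted in 14 libraries, from 0 to 337 CPM in WT-Veh, 0 to 98.3 in WT-THC, 0 to 22.7 in 16p11dup-Veh and 0 to 59.1 in 16p11dup-THC. H2-DMb2 had 1.07, 7.68, 168 and 0.109 CPM in 16p11dup-THC replicates 17, 18, 20 and 21, against at most 2.25 CPM in any other library. Replicate 20 held 93.0% of its summed CPM, and it shares reads with H2-DMb1 as described. In limma, H2-DMb2 had an unadjusted p under 0.05 for 16p11dup-THC compared with WT-Veh, WT-THC and 16p11dup-Veh, and its FDR was 0.803, 0.965 and 0.83. DESeq2 called it in these comparisons and the interaction, with FDR between 0.00214 and 0.0342, again without a share of all genes. Without replicate 20 its log2 fold change compared with WT-THC was 2.37, against 4.01 with it. The unadjusted p of H2-DMb2 in that comparison was no longer under 0.05 without 16p11dup-THC replicate 18 or 20 or WT-THC replicate 7 or 9, nor was it compared with 16p11dup-Veh without replicate 18. With the 5 surrogate variables the H2-DMb2 value was 1.9 compared with WT-THC and 2.53 compared with WT-Veh, and with only the groups compared it was 4.22 compared with WT-THC, in each case with an unadjusted p of 0.05 or more. H2-Eb2 had a count of 0 in all libraries.

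**Figure D4:**
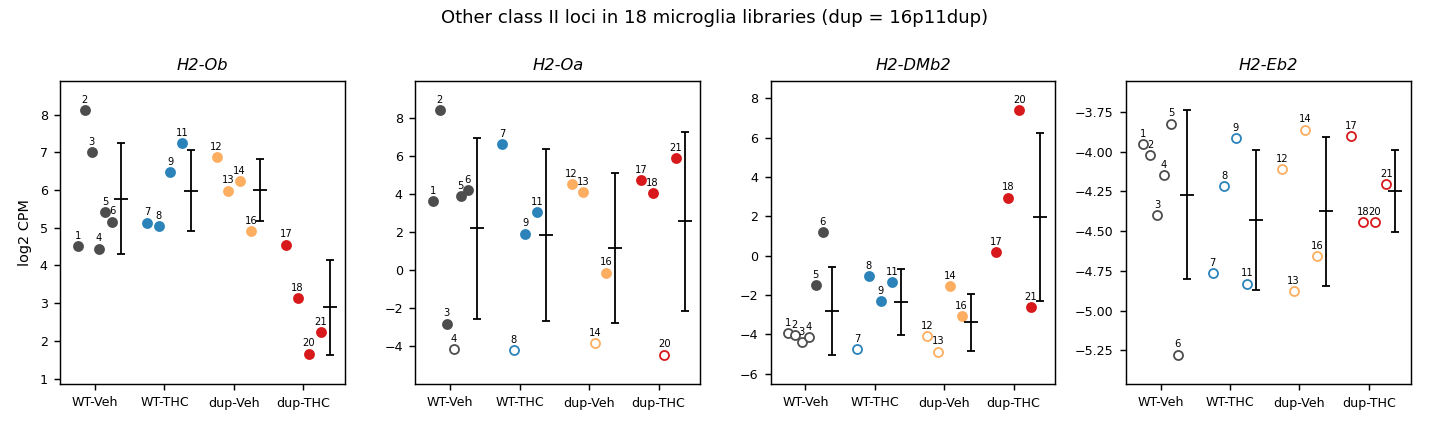
Log2 CPM of the 4 other class II loci (vertical axes) in each library by group (horizontal axes, dup = 16p11dup), with the replicate number at each point, open points for counts of 0, and bars for the mean ± SD of log2 CPM. The 4 16p11dup-THC libraries of H2-Ob (3.12 to 23.4 CPM) lie below all WT-THC and 16p11dup-Veh libraries, with no share of all genes given for such a separation. H2-Eb2 has no count.

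Of the genes that process antigen for class II, Ctss, the protease that trims the invariant chain in antigen presenting cells, had 4118 ± 1335 CPM in WT-Veh (n = 6), 3915 ± 937 in WT-THC (n = 4), 3650 ± 1565 in 16p11dup-Veh (n = 4) and 3884 ± 859 in 16p11dup-THC (n = 4). Of 17 such genes, 0 passed the FDR threshold in limma in any comparison. At an unadjusted p under 0.05, 2 had positive and 1 negative fold changes in WT-THC compared with WT-Veh, 0 and 2 in 16p11dup-Veh compared with WT-Veh, 1 and 2 in 16p11dup-THC compared with WT-Veh, 3 and 2 in 16p11dup-THC compared with WT-THC, 3 and 1 in 16p11dup-THC compared with 16p11dup-Veh, and 2 and 0 in the interaction. In the same order 4.07%, 3.64%, 5.53%, 5.8%, 5.16% and 4.58% of the genes with any count had an unadjusted p under 0.05 in either direction, and the counts of the lists that follow stand beside the same shares. Cd63, a tetraspanin of late endosomes, had 44.9 ± 8.50 CPM in WT-THC (n = 4) against 149 ± 96.8 in WT-Veh (n = 6) and 188 ± 52.1 in 16p11dup-THC (n = 4). Its log2 fold change was −1.37 in WT-THC compared with WT-Veh (SE 0.43) and 1.99 in 16p11dup-THC compared with WT-THC (SE 0.50, limma FDR = 0.965). Lamp2, a lysosomal membrane protein gene, had 881 ± 186 CPM in 16p11dup-THC (n = 4) and 495 ± 139.8 in 16p11dup-Veh (n = 4), a log2 fold change of 0.72 (SE 0.24, limma FDR = 0.83). Lamp2 was −0.50 (SE 0.21) in 16p11dup-Veh compared with WT-Veh. For the interaction Cd63 was 1.51 (SE 0.67) and Cd68, a lysosomal glycoprotein gene of macrophages, was 1.04 (SE 0.46), and Cd68 was 0.88 (SE 0.35) in 16p11dup-THC compared with WT-THC.

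The cathepsin genes at the same threshold had values of both signs. Ctsd, an aspartic protease gene, was 0.35 (SE 0.16) in WT-THC and 0.56 (SE 0.24) in 16p11dup-THC compared with WT-Veh, and 0.58 (SE 0.25) in 16p11dup-THC compared with 16p11dup-Veh. Ctsz, a cysteine protease gene, was −0.83 (SE 0.31) in 16p11dup-THC compared with WT-Veh and −0.99 (SE 0.34) compared with WT-THC. Ctsh was −0.87 (SE 0.37) in 16p11dup-Veh compared with WT-Veh. Rab7, a GTPase gene of late endosomes, was 1.58 (SE 0.64) in 16p11dup-THC compared with 16p11dup-Veh, and Ap1m1, an adaptor subunit gene, was 3.46 (SE 1.58) in WT-THC compared with WT-Veh. The FDR threshold was passed by none of these log2 fold changes.

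March1 and March8 encode membrane ubiquitin ligases known to send class II and CD86 proteins for degradation. March1 had 277 ± 126 CPM in 16p11dup-THC (n = 4) and 150.2 ± 46.2 in WT-THC (n = 4), a log2 fold change of 1.01 (SE 0.37, limma FDR = 0.965). March8 had 7.23 ± 11.9 CPM in 16p11dup-THC (n = 4) against 97.0 ± 167.7 in WT-Veh (n = 6), 29.6 ± 6.90 in WT-THC (n = 4) and 23.7 ± 9.53 in 16p11dup-Veh (n = 4). Its log2 fold changes in 16p11dup-THC were −3.47, −3.58 and −3.15 against these 3 groups, each with an unadjusted p under 0.05, and none passed the FDR threshold.

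Among 16 genes of class II transcription, which include the subunits of the factors that bind the X and Y boxes, at most 1 had an unadjusted p under 0.05 in any comparison. Spi1, which encodes the myeloid factor PU.1, had 96.1 ± 26.2 CPM in 16p11dup-THC (n = 4) and 375 ± 351 in WT-THC (n = 4), a log2 fold change of −1.5 (SE 0.67, limma FDR = 0.965). Rfxank, a subunit of the X box factor RFX, had 0.378 ± 0.510 CPM in 16p11dup-THC (n = 4) and 23.9 ± 52.8 in WT-Veh (n = 6), a log2 fold change of −4.04 (SE 1.67, limma FDR = 0.803).

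Of 20 interferon-gamma signalling genes, 19 had a count and at most 2 had an unadjusted p under 0.05 in any comparison. Socs1, a feedback inhibitor of this pathway, had an unadjusted p under 0.05 in WT-THC compared with WT-Veh, in 16p11dup-THC compared with WT-THC and in the interaction. Of its 958 counts over all libraries, 919 were in 1 WT-THC library, at 122 CPM, and no fold change is given. Gbp5, an interferon-induced GTPase gene, had 1.86 ± 2.44 CPM in WT-Veh (n = 6), 2.11 ± 2.86 in WT-THC (n = 4), 15.3 ± 12.5 in 16p11dup-Veh (n = 4) and 37.4 ± 58.9 in 16p11dup-THC (n = 4). The Gbp5 log2 fold change was 3.63 (SE 1.68) in 16p11dup-Veh and 3.89 (SE 1.67) in 16p11dup-THC compared with WT-Veh, and 4.01 (SE 1.85) in 16p11dup-THC compared with WT-THC, and none passed the FDR threshold. Jak2, a kinase of the interferon-gamma receptor, had 210 ± 184 CPM in 16p11dup-Veh (n = 4) and 41.3 ± 39.7 in WT-Veh (n = 6), a log2 fold change of 2.28 (SE 0.85, limma FDR = 0.982). Of 11 co-stimulation and checkpoint genes other than Cd86, 0 had an unadjusted p under 0.05 in any comparison. Cd80, whose product shares its receptors with CD86, was counted in 15 libraries at 0 to 60.7 CPM, and Cd40 had a count in 1.

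The genes whose levels were most like Cd86 over the 18 libraries, among 3301 genes counted in every library with a mean log2 CPM of 5 or more, were Spag9, Pde4dip, Sipa1, Fat3 and St6gal1. Their Spearman correlations with Cd86 were 0.74, 0.72, 0.70, 0.69 and 0.69. Of the other members only H2-DMa met these limits. The rho of Cd86 with H2-Ab1 was −0.66, with H2-DMa −0.44, with H2-DMb1 −0.40, with H2-Aa −0.24, with Cd74 −0.10 and with H2-Eb1 0.13. Libraries with a count of 0 were ranked too, by log2 CPM values that there depend on library size alone. H2-Ab1, H2-Aa and H2-Eb1 had a count in only 13, 12 and 9 of the 18 libraries. These points share libraries, depth and scaling, and the values are a description.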

How the data were processed

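Microglial RNA was sequenced in 18 libraries of 4 groups, taken from the labels. Smart-seq2 is named in the design text of the series, whereas its protocol names the Nugen Ovation kit for low input. Reads were aligned to GRCm38 by the authors, RSEM 1.3.0 gave the counts with strand ignored, and libraries they left out are not analysed here. The log2 CPM values that the authors deposited are those voom computes, log2 of the count plus 0.5 over a library size that carried a scaling factor of 0.735 to 1.305. Expected counts were recovered from them in steps of 0.01 (largest difference from the deposited values 5.51e-14). Of the non-zero counts, 94.5% were within 0.01 of a whole number. The read counts per library and the fractions of mapped, exonic and intronic reads are as deposited by the authors, mapped reads making up 72.47 to 81.81%. Scores for 5 surrogate variables came with the files deposited by the authors, and the deposited rDNA column, of another unit not stated, was not used.

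The main test was limma 3.58.1 (R 4.3.3) on the deposited log2 values with voom weights, a term for each of 4 groups, the mapped percentage as covariate, Benjamini-Hochberg adjustment over 22428 genes and a threshold of FDR 0.10. The interaction came from the factorial form. No filter was set on low values. Fold changes are on the scale of log2 CPM with 0.5 counts added, which understates changes of low genes. Single genes were also compared by exact permutation tests (NumPy 2.4.6), and SciPy 1.17.1 was used for the Spearman correlations. Alternatives were edgeR 4.0.16, DESeq2 1.42.0 (both on rounded counts), other weights, filters, offsets, scalings, covariates and samples, and each library left out. The scripts were tested on simulated data. The members and gene lists were chosen with earlier results of these data known. All 8 members are named, and of each list the genes with an unadjusted p under 0.05 in limma. Coordinates are from GENCODE and promoters from RefSeq, both on GRCm38. Cell type markers served as a check of the sort, and 2 of these markers are not reported here.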

Additional observations from a re-analysis of the deposited data

Results flagged for a closer look

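In the groups of 4 to 6 libraries, 42 sets of levels of class II genes and Cd86 were examined for a library far from the others. Of these, 2 were found, where chance gives about 1 in 20 for normally distributed values. Several sets held counts of 0, whose log2 values depend on library size alone, so that rate need not hold. H2-Ab1 in 16p11dup-Veh was 8.92 CPM in replicate 12 and 0.0794 to 0.138 CPM in the other 3 libraries. The monocyte and neutrophil marker sum of the same library was 294 CPM, against 0.748 to 16.4 in the other 3, and its part in the H2-Ab1 level was not tested. Ciita in WT-Veh was 0.283 CPM in replicate 5, which stands for 2 counts, and 0 to 0.0516 CPM in the other 5 libraries.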

How the results depend on the processing

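No paired analysis was possible because no replicate number occurs in more than 1 group. With 11 alternatives and 18 fits that each left out 1 library, limma and edgeR called no member at an FDR of 0.10. DESeq2 gave 1 call in each of 16p11dup-Veh compared with WT-Veh, 16p11dup-THC compared with WT-Veh, 16p11dup-THC compared with 16p11dup-Veh and the interaction. The count of members at an unadjusted p under 0.05 was 1 under DESeq2 in WT-THC compared with WT-Veh, and 1 under DESeq2, edgeR and the fit of only the groups compared in 16p11dup-Veh compared with WT-Veh. In 16p11dup-THC compared with WT-Veh it was 0 under edgeR, without weights, with the filter, without the scaling factor, with 5 surrogate variables and with only the groups compared, and 0 to 2 with 1 library left out. In 16p11dup-THC compared with 16p11dup-Veh it was 3 under DESeq2, 2 under edgeR, 0 with 5 surrogate variables and 0 to 2 with 1 library left out. In 16p11dup-THC compared with WT-THC it was 0 with 5 surrogate variables and 0 to 1 with 1 library left out. For the interaction it was 2 under DESeq2, 2 under edgeR, 0 with 5 surrogate variables and 0 to 1 with 1 library left out. No fold change of Ciita was given, so none was varied. The alternatives for H2-DMb2 and H2-Ob were chosen after seeing the data, and H2-DMb2 did not pass the filter of 10 counts in 4 libraries. The fit of only the groups compared cannot give an interaction.

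Estimates that were not past the threshold turned sign as follows, in log2 fold change, and the cause was not tested. For Cd74, DESeq2 and edgeR gave −2.86 and −2.87 in 16p11dup-THC compared with 16p11dup-Veh, −0.14 and −0.12 in 16p11dup-THC compared with WT-Veh, 2.72 and 2.75 in 16p11dup-Veh compared with WT-Veh and −0.99 and −0.98 in the interaction. In 16p11dup-Veh compared with WT-Veh, Cd74 was 0.045 without the covariate, 0.46 with only the groups compared and −2.69 to 1.14 with 1 library left out. In WT-THC compared with WT-Veh it was 0.235 with 5 surrogate variables and −1.67 to 0.88 with 1 library left out. H2-Aa in 16p11dup-THC compared with WT-THC was 3.82 under DESeq2, 3.78 under edgeR, 0.011 with an offset of 2 counts and −2.39 to 2.06 with 1 library left out. Compared with WT-Veh it was −0.031 with 5 surrogate variables and −0.57 to 3.67 with 1 library left out, and in WT-THC compared with WT-Veh −1.89 under DESeq2 and −1.92 under edgeR.

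With 5 surrogate variables, H2-Ab1 was 2.14 in 16p11dup-THC compared with 16p11dup-Veh, −0.35 in WT-THC compared with WT-Veh and 2.49 in the interaction, and it was −0.019 in WT-THC compared with WT-Veh when the weights used the design. With 1 library left out, H2-Ab1 ranged from −1.93 to 0.88 in 16p11dup-THC compared with 16p11dup-Veh, −4.44 to 0.10 compared with WT-THC, −2.0 to 2.78 in WT-THC compared with WT-Veh and −3.24 to 1.81 in the interaction. H2-Eb1 with 5 surrogate variables was −0.62 in 16p11dup-THC compared with WT-THC and −1.47 in the interaction, and with 1 library left out −0.53 to 1.09 in 16p11dup-Veh compared with WT-Veh and −0.74 to 3.83 in the interaction.

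H2-DMa was −0.28 under DESeq2 and −0.27 under edgeR in 16p11dup-THC compared with 16p11dup-Veh, and −0.20 under both (−0.199 and −0.196) in the interaction. Without the scaling factor it was 0.016 in WT-THC compared with WT-Veh and −0.002 in the interaction. With 1 library left out it was −0.69 to 0.41 in 16p11dup-THC compared with 16p11dup-Veh, −1.01 to 0.043 in 16p11dup-Veh compared with WT-Veh, −0.39 to 0.15 in WT-THC compared with WT-Veh and −0.62 to 0.60 in the interaction. H2-DMb1 was 0.995 with 5 surrogate variables, 0.81 under DESeq2, 0.80 under edgeR, 0.68 with only the groups compared and −2.43 to 0.12 with 1 library left out in 16p11dup-THC compared with 16p11dup-Veh. Compared with WT-Veh it was 0.235 with 5 surrogate variables, 0.41 under DESeq2, 0.40 under edgeR and −1.93 to 0.73 with 1 library left out in 16p11dup-THC, and −0.76, −0.40 (−0.402), −0.40 (−0.399) and −0.34 to 1.22 in 16p11dup-Veh.

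H2-DMb2 was 0.06 when the weights used the design and −0.99 to 0.57 with 1 library left out in 16p11dup-Veh compared with WT-Veh, and −0.66 under DESeq2 and −0.65 under edgeR in WT-THC compared with WT-Veh. H2-Ob was −0.34 under DESeq2, −0.36 under edgeR and −0.13 to 0.56 with 1 library left out in 16p11dup-Veh compared with WT-Veh, and −0.18 under both (−0.177 and −0.181) and −0.27 to 0.82 with 1 library left out in WT-THC compared with WT-Veh. Cd86 kept its sign in every comparison under all alternatives run, as did H2-Ob in the 4 comparisons that involve 16p11dup-THC.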
